A study of Mus musculus with 238 samples.

Results

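The hypothalamus of 19-month-old female C57BL/6JN mice was compared between dietary restriction (aDR) and ad libitum feeding (AL). The members were chosen by the sample labels: every hypothalamus library of the diet cohort, 4 of aDR mice (mouse numbers 62, 64, 65 and 67) and 4 of AL mice (63, 66, 68 and 69), 8 of the 238 libraries of the series. Each library came from the tissue of 1 mouse, and all 13804 genes that passed a filter on low counts were tested. The same mice gave libraries of 14 other brain regions, and a second cohort of male mice of the same age and strain received young mouse plasma (YMP) or saline (PBS). All the mice were old, so the data hold no young group, and the hypothalamus of aDR mouse 61 was not analysed here. Neither the degree and length of the restriction nor the hour of sampling stands in the labels.

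The hypothalamus is a small set of nuclei at the base of the brain that matches feeding, body temperature, hormone release and the daily rhythm to the state of the body. In the arcuate nucleus, neurons that make Agrp and Npy drive feeding and neurons that make Pomc and Cartpt restrain it. Fasting raises Agrp and Npy and raises circulating glucocorticoids, which enter the brain and switch on a set of target genes. Caloric restriction also lowers body temperature in mice, and cold-inducible RNA-binding proteins are made at lower temperature. Feeding time is a cue for the circadian clock, a loop in which Clock and Arntl activate Per and Cry genes whose products repress them.

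Levels are given as CPM (counts scaled to the same library size, with library sizes adjusted by TMM), and values of the 8 libraries follow the order aDR 62, 64, 65, 67 and AL 63, 66, 68, 69. Library totals were 7.23 to 9.57 M counts in aDR and 5.34 to 21.9 M in AL, with AL mouse 66 far above the others. Mitochondrial genes took 1.47% to 2.18% of counts in aDR and 1.70% to 2.31% in AL. The labelled tissue was checked against 16 hypothalamic neuron markers, whose summed level was 2064 to 3037 CPM in aDR and 2045 to 4633 CPM in AL, with 0 of the 16 at 0 in all libraries. The marker lists of other tissues had no marker at 0 in all libraries either, so that count does not tell tissues apart. Markers of thalamic neurons, the tissue next to hypothalamus, summed to 921 to 1270 CPM in aDR, highest in aDR 62, and to 1005 to 1165 CPM in AL. The share of neighbouring tissue was not tested. Of the 16 hypothalamic markers 14 had a log2 change below 0 (median -0.45), and 1, Agrp, had a p under 0.05. The libraries differed in which nuclei they held. The library of aDR mouse 62 had 0 CPM of Nr5a1 and 0.11 CPM of Fezf1, factors of the ventromedial nucleus, where the other 7 had at least 18.8 and 24.1 CPM. Pituitary endocrine markers summed to 1182 CPM in aDR mouse 67, mostly Prl at 931 CPM, and to at most 42.8 CPM in the other 7 libraries.

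No gene passed the test in hypothalamus. At an adjusted p under 0.05 (edgeR quasi-likelihood test, Benjamini-Hochberg), 0 of 13804 genes were called (0%), and the smallest adjusted p was 0.608. An unadjusted p under 0.05 was found for 639 genes (4.63%), of which 314 were higher in aDR (2.27%) and 325 lower (2.35%). Where nothing differs, such a p is expected for a share of about 0.05 of the genes, so 639 is no more than that. The 4 aDR values lay wholly above or wholly below the 4 AL values in 446 genes (3.23%), 232 higher (1.68%) and 214 lower (1.55%). DESeq2 called 11 of 12805 genes (0.0859%) at the same threshold. It gave 9 higher genes, Cirbp, Rbm3, Tsc22d3, Plin4, Etnppl, Rin2, Klf15, Mertk and Ciart, and 2 lower genes, Fabp7 and Edil3. Below, p without a further word is the unadjusted p of edgeR, and the verbs of change are kept out because none of these genes passed the edgeR test.

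The smallest p-values belonged to the cold-inducible RNA-binding proteins. Rbm3 (chrX:8138975-8145880, GRCm38.p6), a chaperone of RNA made in cool cells, was at 98.5, 85.2, 95.9 and 94.1 CPM in aDR and 65.6, 48.9, 49.1 and 63.2 CPM in AL. Every aDR mouse was above every AL mouse, with means of 93.4 ± 5.75 and 56.7 ± 8.96 CPM (SD, n = 4 each). The log2 change was 0.73 (SE 0.11), with an edgeR adjusted p of 0.608 and a DESeq2 adjusted p of 4.94e-05. Cirbp (chr10:80165990-80172786), its relative, was at 272, 259, 310 and 265 CPM in aDR and 206, 192, 183 and 195 CPM in AL. The groups did not overlap here either, and the log2 change was 0.51 (SE 0.08; edgeR adjusted p 0.608, DESeq2 adjusted p 9.29e-06). Rbm3os, an antisense transcript across Rbm3, was at 4.72 ± 0.824 CPM in aDR and 2.33 ± 0.335 CPM in AL (SD, n = 4 each). The libraries carry no strand, so reads of Rbm3 and Rbm3os cannot be told apart. The list of cold-inducible genes and partners holds 4 genes, of which Rbm3 and Cirbp had a p under 0.05, beside 4.63% of all genes. Its median log2 change was 0.26 beside 0.01 over all genes tested. Both genes were also called higher over the other 14 regions (limma, below), and the list was chosen with earlier results of these data known.

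Genes that glucocorticoids switch on were mostly higher in aDR. Of the 24 listed, 23 were tested (Lcn2 was not). A log2 change above 0 was found in 22 of the 23, beside 7147 of all 13804 genes. Of the 23, 12 had a p under 0.05 and were higher, beside 2.27% of all genes, and 0 were lower at that p. The list was chosen with earlier results of these data known, so its counts are not independent evidence. Its members Fkbp5, Tsc22d3, Plin4, Zbtb16, Fmo2, Hif3a, Sult1a1, Klf15, Mertk and Map3k6 were called higher over the other 14 regions (limma, below). The median log2 change of the list was 0.51, beside 0.01 over all genes tested, and 8 of its genes had groups that did not overlap, against 1.68% of all genes. In bulk tissue, more cells that make a transcript and more transcript per cell cannot be told apart.

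Tsc22d3, the glucocorticoid-induced leucine zipper, was at 240, 224, 187 and 234 CPM in aDR and 135, 135, 167 and 157 CPM in AL (log2 change 0.58, SE 0.11). Klf15, a transcription factor of fasting metabolism, was at 60.5, 59.8, 47.2 and 53.9 CPM against 39.6, 37.7, 43.4 and 36.3 CPM (0.50, SE 0.10). Mertk, a receptor kinase by which glia engulf debris, was at 26.4, 27.0, 27.5 and 29.4 CPM against 18.7, 16.5, 22.4 and 15.3 CPM (0.60, SE 0.12). In all 3 genes the lowest aDR mouse was above the highest AL mouse, and aDR 65 was the lowest of its group for Tsc22d3 and Klf15. Sgk1, a kinase that acts on ion transport, was at 183, 108, 112 and 165 CPM against 73.5, 82.9, 104 and 97.1 CPM (0.67, SE 0.18). Fkbp5, a co-chaperone that dampens the glucocorticoid receptor, was at 41.4, 50.2, 38.2 and 62.3 CPM against 36.4, 30.1, 35.0 and 34.6 CPM (0.51, SE 0.15). Zbtb16, a zinc finger factor, was at 25.4, 19.3, 17.5 and 32.1 CPM against 13.7, 10.96, 13.6 and 14.8 CPM (0.85, SE 0.19). The groups of these 3 genes did not overlap, and aDR 62 or aDR 67 was the highest library in each.

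The widest difference of the list was that of Plin4, a coat protein of lipid droplets, at 18.4, 20.8, 5.47 and 15.9 CPM in aDR and 3.92, 2.62, 6.03 and 1.68 CPM in AL (log2 change 2.13, SE 0.44, edgeR adjusted p 0.769, DESeq2 adjusted p 0.00338). The groups overlapped because aDR 65 lay below AL 68. Fmo2, a flavin monooxygenase, was at 6.99, 3.79, 3.42 and 10.3 CPM against 1.78, 2.62, 1.38 and 3.18 CPM (1.42, SE 0.40), without overlap. The other list members with a p under 0.05 were Map3k6 (0.83), Hif3a (0.74, with low means of 3.48 CPM in aDR and 2.15 CPM in AL), Klf9 (0.29) and Dusp1 (0.29). Members without it included Cdkn1a (0.57), Pdk4 (0.52), Mt1 (0.21), Mt2 (0.16) and Ddit4 (0.11). Tgm2, at -0.05, was the 1 tested member below 0. Receptors and steroid enzymes did not share the pattern: of 9 tested genes for corticosteroid receptors, CRH receptors and local steroid enzymes, 0 had a p under 0.05 and the median was -0.10. Libraries aDR 62 and aDR 67, which stand apart in nuclei or pituitary markers, weigh on this list. Without both, its median log2 change was 0.31, that of Sgk1 0.31 and that of Fmo2 0.66, and with each of the 8 libraries left out in turn the median ran from 0.35 to 0.60.

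**Figure D1:**
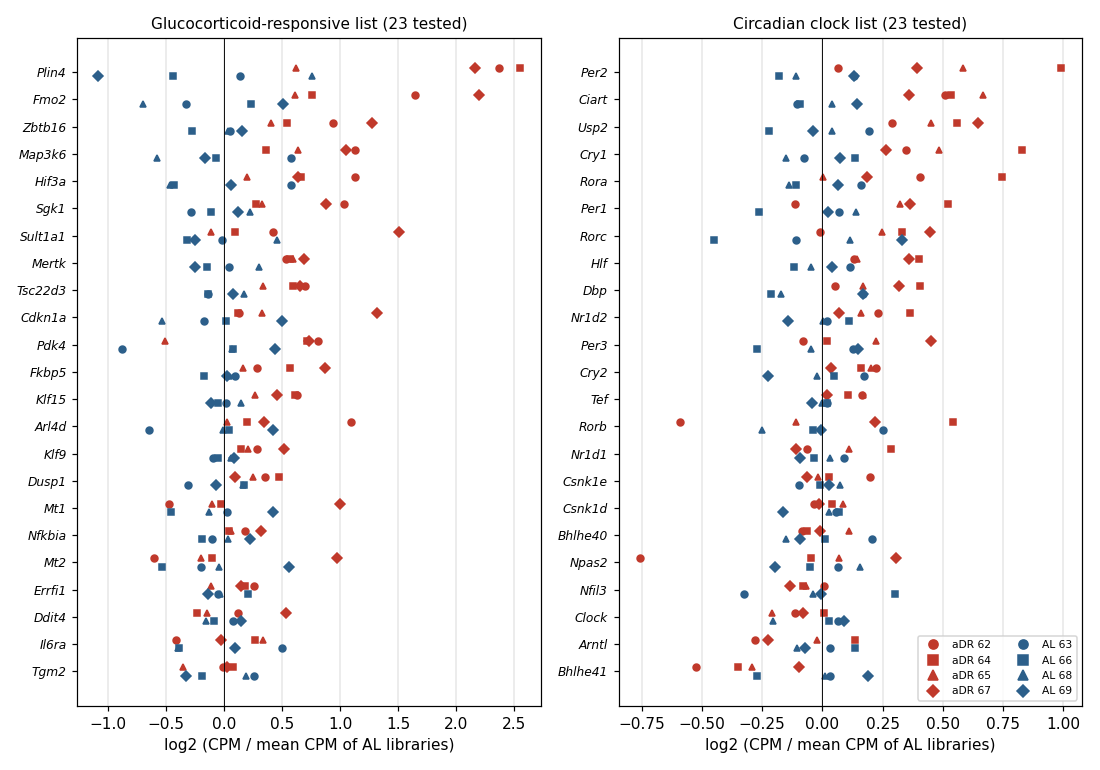
Each point is 1 library, as log2 of its CPM over the mean CPM of the 4 AL libraries (x axis, no unit), for the 23 tested genes of the glucocorticoid list (left) and the 23 of the clock list (right), sorted by the edgeR log2 change. Red marks aDR and blue AL, with 1 symbol per mouse. On the left, 8 genes have every red point to the right of every blue point, and on the right 4 do.

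Of the clock list, all 23 genes were tested. That list too was chosen with earlier results of these data known. Its members Ciart, Cry1, Usp2, Dbp, Per1, Per2, Cry2 and Tef were called higher over the other 14 regions (limma, below), and Arntl and Nfil3 were called lower there. At a p under 0.05, 7 were higher and 1 was lower, beside 2.27% and 2.35% of all genes, and the median log2 change was 0.16 beside 0.01. In 4 of them (Ciart, Cry1, Usp2 and Hlf) the aDR values lay above the AL values without overlap, beside 1.68% of all genes. Among the repressors of the loop, Ciart, Cry1 and Per2 were higher in aDR at that p and Bhlhe41 was lower, while Per1 (0.30, SE 0.15), Per3 (0.18, SE 0.13), Cry2 (0.16, SE 0.09) and Bhlhe40 (-0.01, SE 0.09) had none. Ciart, a repressor of Clock and Arntl, was at 30.3, 30.8, 33.8 and 27.3 CPM against 19.8, 19.96, 21.9 and 23.6 CPM (0.53, SE 0.10; edgeR adjusted p 0.702, DESeq2 adjusted p 0.049). Cry1 was at 51.3, 71.7, 56.5 and 48.5 CPM against 38.3, 44.3, 36.4 and 42.5 CPM (0.49, SE 0.13). Per2 was at 28.8, 54.7, 41.2 and 36.1 CPM against 30.1, 24.3, 25.5 and 30.1 CPM (0.55, SE 0.18), and aDR 62 lay inside the AL range. Usp2, a deubiquitinase with a daily rhythm, was at 47.7, 57.4, 53.4 and 61.1 CPM against 44.6, 33.5, 40.2 and 38.0 CPM (0.50, SE 0.11).

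Outputs of the clock in the PAR bZIP family gave smaller differences: Hlf 0.27 (SE 0.09), Dbp 0.25 (SE 0.12) and Tef 0.12. Of the receptors that act on Arntl, Rora was at 0.37 (SE 0.15), Nr1d2 at 0.21 (SE 0.09) and Nr1d1 at 0.06 (SE 0.09), where the aDR values of 105, 133, 118 and 101 CPM and the AL values of 116, 107, 112 and 102 CPM ran through each other. The activators Arntl (-0.10) and Clock (-0.10) were near 0 in hypothalamus, while Arntl was at -0.34 (SE 0.03) over the other 14 regions. Bhlhe41, another repressor, was lower, at 49.8, 56.2, 58.6 and 67.0 CPM against 73.1, 59.4, 72.2 and 81.7 CPM (-0.30, SE 0.12). Library aDR 64 was the highest of all 8 for Per2, Cry1, Rora and Nr1d2. That library also had the most Vip, a peptide of the suprachiasmatic nucleus, at 105 CPM beside 1.25 to 11.4 CPM in the other 7, and the most Six6, a factor of that nucleus, at 43.3 CPM beside 0 to 20.01 CPM. Without aDR 64 the log2 changes were 0.37 for Per2, 0.36 for Cry1 and 0.21 for Rora, and the part of the nuclei in these values was not tested.

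Promoters of 4 of these genes are shown because they hold the letters that clock factors (CACGTG) or the glucocorticoid receptor are known to bind. They are the 250 bases before the RefSeq start, on the strand of the gene (GRCm38.p6), with the matches to CACGTG in capitals in the first 3: Ciart at chr3:95882229-95882478 (minus strand, 3 matches), Klf15 at chr6:90462326-90462575 (plus strand, 2 matches), Cry1 at chr10:85185055-85185304 (minus strand, 1 match) and Sgk1 at chr10:21993640-21993889 (plus strand, 1 of 6 starts of the gene). In Sgk1 the capitals mark only AGAACA and TGTTCT, 3 bases apart, a palindrome of the glucocorticoid receptor, and a CACGTG near the left end is in lower case.
Ciart: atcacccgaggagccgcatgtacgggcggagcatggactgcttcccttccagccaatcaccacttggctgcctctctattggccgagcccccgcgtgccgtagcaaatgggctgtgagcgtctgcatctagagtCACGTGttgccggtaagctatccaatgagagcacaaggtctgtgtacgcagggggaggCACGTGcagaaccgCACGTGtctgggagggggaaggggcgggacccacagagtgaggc
Klf15: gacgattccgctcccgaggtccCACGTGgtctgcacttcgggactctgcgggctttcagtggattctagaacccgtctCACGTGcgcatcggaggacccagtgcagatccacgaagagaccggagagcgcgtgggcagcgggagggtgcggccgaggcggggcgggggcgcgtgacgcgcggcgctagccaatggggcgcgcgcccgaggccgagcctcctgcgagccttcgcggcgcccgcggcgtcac
Cry1: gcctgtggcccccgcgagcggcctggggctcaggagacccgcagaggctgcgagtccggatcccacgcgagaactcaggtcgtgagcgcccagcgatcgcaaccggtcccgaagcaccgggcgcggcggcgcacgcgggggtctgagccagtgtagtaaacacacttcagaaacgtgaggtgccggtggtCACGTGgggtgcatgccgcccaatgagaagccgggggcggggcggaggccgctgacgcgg
Sgk1: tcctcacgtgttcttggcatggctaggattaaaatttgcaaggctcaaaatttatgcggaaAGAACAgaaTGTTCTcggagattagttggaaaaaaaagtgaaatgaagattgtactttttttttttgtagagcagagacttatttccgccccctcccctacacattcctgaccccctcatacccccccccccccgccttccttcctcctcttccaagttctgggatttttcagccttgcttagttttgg

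CACGTG, which reads the same on both strands, was found in 6.02% of the 32851 promoters of the table and in 8.01% of the 13925 promoters of genes tested. It was found in 6 of the 28 promoters of the clock list (21.4%), those of Bhlhe41, Ciart, Cry1, Per1 and Tef, and in 5 of the 32 of the glucocorticoid list (15.6%), those of Dusp1, Fkbp5, Il6ra, Klf15 and Sgk1. Among the 20 genes with the smallest p in either direction, 16 had promoters in the table, and those of Ciart, Eif5a2 and Klf15 held it. The palindrome of AGAACA and TGTTCT with any 3 bases between them was in 3 of the 32851 promoters (0.00913%), that of Sgk1 among them. A match shows only that the letters are in this window, and Bhlhe41, whose promoter holds CACGTG, was lower in aDR where Ciart and Cry1 were higher.

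The other leading genes on the higher side have roles in lipid handling, trafficking and growth control. Rin2, which acts on the small GTPase Rab5 in endosomes, was at 58.8, 59.1, 49.7 and 58.9 CPM in aDR and 42.4, 42.3, 41.5 and 40.02 CPM in AL (log2 change 0.45, SE 0.08; DESeq2 adjusted p 0.0141). Etnppl, an astrocyte enzyme that breaks down phosphoethanolamine, was at 144, 182, 139 and 210 CPM against 112, 102, 114 and 104 CPM (0.64, SE 0.13; DESeq2 adjusted p 0.00756). Mfsd2a, which carries lysophospholipids with omega-3 fatty acids across the vessel wall of the brain, was at 22.3, 20.96, 23.8 and 28.8 CPM against 15.5, 15.7, 17.8 and 16.6 CPM (0.55, SE 0.12). Mxi1, an antagonist of Myc, had the tightest group, 86.0, 86.2, 85.5 and 86.4 CPM in aDR against 69.2, 72.0, 71.3 and 63.4 CPM in AL (0.32, SE 0.06). The rule that named these genes asked for groups without overlap, so the gap between them is no further evidence.

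On the lower side the first gene was Fabp7 (chr10:57784923-57788450), the fatty-acid-binding protein of astrocytes and radial glia. It was at 25.5, 24.9, 19.3 and 19.1 CPM in aDR and 30.7, 35.0, 42.2 and 50.3 CPM in AL (log2 change -0.82, SE 0.16; edgeR adjusted p 0.702, DESeq2 adjusted p 0.0137). Edil3, a matrix ligand of integrins, was at 131, 126, 109 and 112 CPM against 168, 150, 153 and 161 CPM (-0.40, SE 0.08; DESeq2 adjusted p 0.0141). Cldn5, the main claudin of the tight junctions of brain vessels, was at 7.86, 7.58, 7.25 and 8.99 CPM against 11.4, 11.9, 11.9 and 12.7 CPM (-0.60, SE 0.13). Several of the rest act in neurons and their matrix. Eif5a2, a translation factor, was lower by a log2 change of -0.52 (SE 0.11), Ncan, the proteoglycan neurocan, by -0.41 (SE 0.10), and Lpcat4, a phospholipid acyltransferase, by -0.38 (SE 0.09). Lower values were also found for Fam13b (-0.37), Trim2, a neuronal ubiquitin ligase (-0.30), and Tenm2, a synaptic adhesion protein (-0.28). The DESeq2 adjusted p of these 3 genes ran from 0.0524 for Trim2 to 0.34 for Tenm2.

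**Figure D2:**
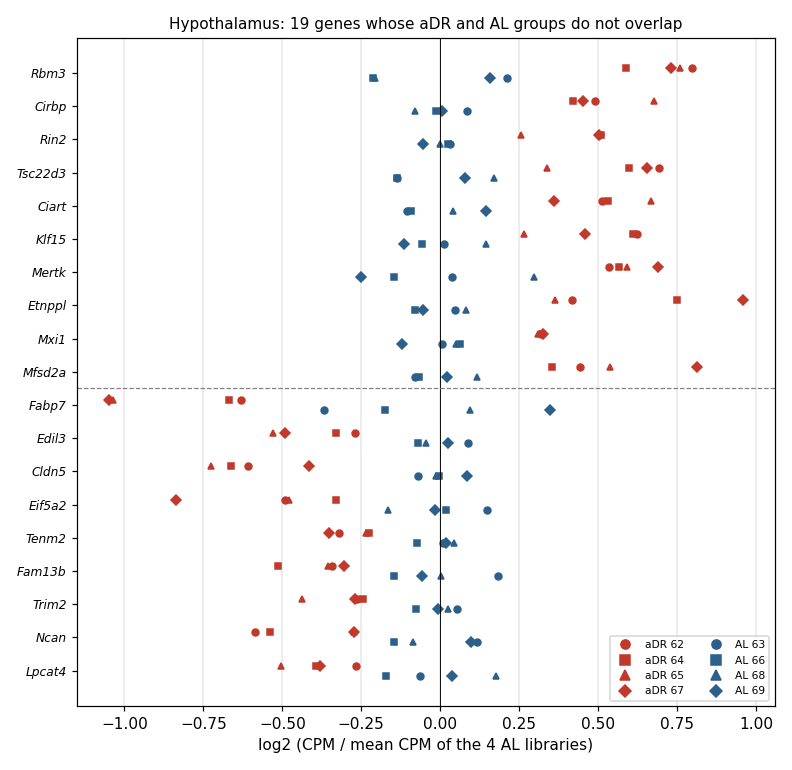
Each point is 1 library, as log2 of its CPM over the mean CPM of the 4 AL libraries (x axis, no unit), for 10 higher and 9 lower genes with the smallest p among those with a mean of at least 5 CPM and no overlap of the groups, red for aDR and blue for AL. By that rule all red points of the upper 10 genes lie to the right of the blue ones and those of the lower 9 to the left; Rbm3 and Fabp7 have the widest gaps of means.

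The feeding circuit gave large values with large spread. Of 28 listed genes for feeding peptides, their receptors and peptide processing, 26 were tested, and the median log2 change was -0.05. With a p under 0.05, 3 were higher (Agrp, Npy5r and Cpe) and 0 lower, beside 2.27% and 2.35% of all genes. Agrp (chr8:105566695-105579845), the antagonist of melanocortin receptors that drives feeding, was at 1.53, 1.89, 13.96 and 71.8 CPM in aDR and 6.78, 1.499, 1.38 and 5.05 CPM in AL. Only aDR 65 and aDR 67 were above the AL range, and the log2 change of 2.74 (SE 1.14, edgeR adjusted p 0.986) was 0.70 without aDR 67. Npy, the other peptide of these neurons, was at 8.51, 11.99, 59.9 and 207 CPM against 28.5, 8.95, 6.72 and 33.7 CPM (1.96, SE 0.94), and 0.50 without aDR 67. In both genes aDR 65 and aDR 67 were the highest libraries, and the other 2 aDR mice lay within the AL range.

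The opposing peptides did not separate the diets either. Pomc, the precursor of the satiety peptide alpha-MSH, was at 2.40, 66.4, 86.9 and 47.9 CPM in aDR and 104, 19.4, 5.69 and 202 CPM in AL (-0.67, SE 0.97). Cartpt was at 52.8, 42.2, 250 and 178 CPM against 225, 219, 88.9 and 214 CPM (-0.52, SE 0.52). Rax, a factor of tanycytes next to the arcuate nucleus, varied as well, at 0.44, 0.25, 9.58 and 15.4 CPM in aDR and 10.7, 0.52, 0 and 1.496 CPM in AL. The highest library was a different one for each of Rax, Pomc and Cartpt. The libraries highest in Rax, aDR 67, AL 63 and aDR 65, were also the highest in Agrp, and aDR 67 and aDR 65 were the highest in Npy. Pituitary markers summed to 1182 CPM in aDR 67. The part of the nuclei, or of neighbouring tissue, in the spread of Agrp, Npy, Pomc and Cartpt was not tested. The leptin receptor Lepr (-0.02, SE 0.34), the ghrelin receptor Ghsr (0.55), the insulin receptor Insr (0.01) and the melanocortin receptors Mc3r (0.07) and Mc4r (-0.29) had no p under 0.05. Npy5r, a receptor for Npy in feeding, was at 9.71, 9.47, 9.58 and 13.2 CPM against 7.67, 8.01, 9.13 and 7.85 CPM (0.36, SE 0.16), without overlap. Cpe, the carboxypeptidase that trims neuropeptide precursors, was at 3372 ± 685 CPM in aDR and 2657 ± 413 CPM in AL (SD, n = 4 each; 0.34, SE 0.15), with overlapping groups.

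**Figure D3:**
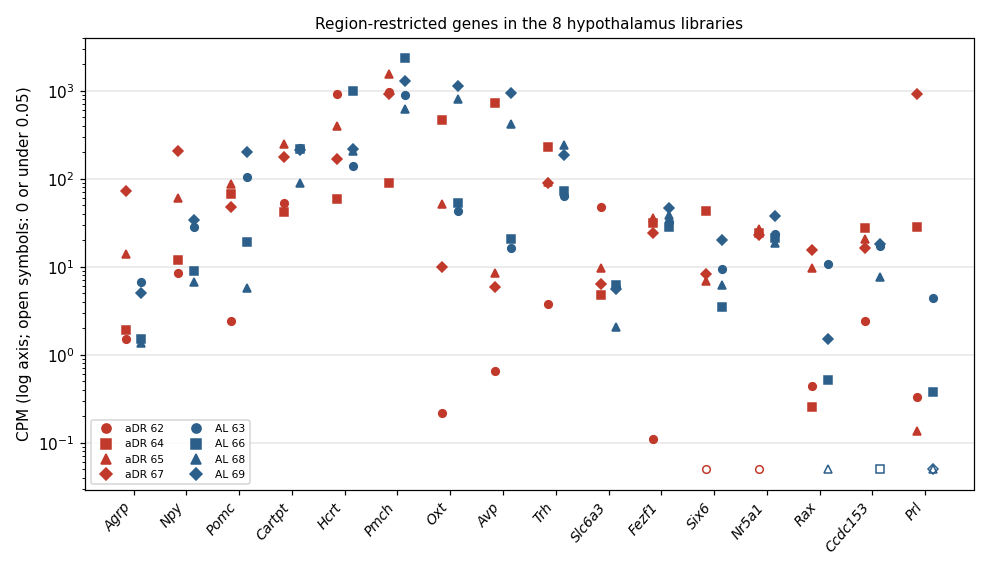
CPM on a log axis (y) in the 8 libraries of hypothalamus (red aDR, blue AL, 1 symbol per mouse) for 16 peptides, factors and markers that single nuclei or neighbouring tissue make. Open symbols at the bottom stand for libraries at 0 or under the lowest level drawn. Within 1 diet group the values of Oxt, Avp and Prl spread over more than 1 decade of the axis.

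Several hormone and peptide genes of other nuclei likewise varied widely within a diet. Of 34 listed, 29 were tested, and the median log2 change was 0.12. Slc6a3 and Slc18a2, 2 of the 29, were higher with a p under 0.05 and 0 were lower, beside 2.27% and 2.35% of all genes. Oxt, the oxytocin precursor of the paraventricular and supraoptic nuclei, was at 0.218, 467, 51.6 and 10.01 CPM in aDR and 43.3, 53.04, 803 and 1131 CPM in AL (-1.94, SE 1.46). Avp, the vasopressin precursor, was at 0.655, 727, 8.48 and 5.91 CPM against 16.2, 20.8, 422 and 951 CPM (-0.92, SE 1.68). The same 3 libraries, aDR 64, AL 68 and AL 69, were the highest in both. Without aDR 64 the log2 change was -4.65 for Oxt and -6.18 for Avp, without AL 69 it was -1.16 and 0.30, and no single value describes the diet for these genes.

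Hcrt, the orexin precursor of the lateral hypothalamus, was at 916, 58.8, 401 and 168 CPM in aDR and 139, 999, 205 and 220 CPM in AL (-0.03, SE 0.80). Pmch, the melanin-concentrating hormone precursor of the same area, was at 976, 88.9, 1573 and 925 CPM against 894, 2342, 618 and 1285 CPM (-0.53, SE 0.66). For both genes the ranges of the diets overlapped. Crh, the releasing hormone of the stress axis, was at 5.35, 0.884, 3.83 and 4.75 CPM against 1.96, 5.53, 15.2 and 13.8 CPM (-1.26, SE 0.61), and the groups overlapped. Trh (-0.44, SE 0.79), Sst (-0.09, SE 0.37), Ghrh (0.10, SE 0.50) and Gal (-0.13, SE 0.51) had values that turned sign with 1 or 2 libraries left out. Slc6a3, the dopamine transporter, was at 47.5, 4.80, 9.71 and 6.42 CPM against 5.88, 6.28, 2.07 and 5.61 CPM (1.76, SE 0.70). Its value rested on aDR 62, without which it was 0.46. Slc18a2, the vesicular monoamine transporter, was at 70.3, 61.5, 91.1 and 108 CPM against 71.0, 72.6, 36.2 and 46.6 CPM (0.53, SE 0.24).

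Among 29 tested transcription factors and markers of hypothalamic nuclei, 0 had a p under 0.05 and the median log2 change was 0.03. The first principal component of these 29 genes held 64.2% of their variance and was 9.54 in aDR 62, -7.11 in aDR 64, -5.51 in AL 68 and -6.68 in AL 69, so both diets had libraries at its low end. With that component as a covariate, edgeR called 0 genes and 619 had a p under 0.05. Tanycyte and ependymal genes, which line the third ventricle, had a median log2 change of 0.49 over 17 tested, 16 of them above 0, but 0 with a p under 0.05. The ciliary gene Ccdc153 was at 2.40, 27.5, 20.9 and 16.3 CPM in aDR and 17.3, 0, 7.76 and 18.1 CPM in AL. It was at 0 in AL 66, the deepest library, and Tmem212, another gene of ciliated ependyma, was at 0 CPM there too. With each library left out in turn, the median of this list ran from 0.17 to 0.95.

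Genes of energy use gave small, mixed differences. The 28 genes of fatty acid oxidation, ketones and lipid storage had a median of 0.10. Of them 4 were higher and 1 lower at a p under 0.05, beside 2.27% and 2.35% of all genes. Besides Plin4 and Fabp7 these were Plin3, a lipid droplet coat (0.41, SE 0.15), Pnpla2, the lipase that opens triglyceride stores (0.30, SE 0.11), and Acadm, a mitochondrial acyl-CoA dehydrogenase (0.20, SE 0.08). In fatty acid synthesis 1 of 14 genes was higher and 1 lower at a p under 0.05, beside 2.27% and 2.35% of all genes. The factor Srebf1 was higher, at 111 ± 14.1 CPM in aDR and 90.1 ± 7.53 CPM in AL (0.30, SE 0.10). The desaturase Scd2, an enzyme of the same pathway, was lower, at 572 ± 54.8 CPM against 757 ± 91.4 CPM (SD, n = 4 each; -0.40, SE 0.11), and the median of the 14 genes was 0.01. Cholesterol synthesis had 0 of 22 genes with a p under 0.05 (median 0.01).

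In growth hormone, IGF and insulin signalling, 1 of 27 genes had a p under 0.05, beside 4.63% of all genes. It was the insulin receptor substrate Irs1, at 23.9, 21.5, 20.8 and 17.97 CPM against 17.5, 18.04, 16.7 and 16.5 CPM (0.29, SE 0.11), where aDR 67 lay just below AL 66. Among 28 genes of nutrient sensing, 1 was higher and 1 lower at that p, beside 2.27% and 2.35% of all genes. Sesn1, a brake on mTORC1, was higher (0.16, SE 0.07). Prkaa1, a catalytic subunit of AMPK, was lower at 34.5 ± 2.48 CPM against 41.6 ± 2.18 CPM (SD, n = 4 each; -0.27, SE 0.08). Of 15 one-carbon genes 12 had a log2 change above 0, and 3 were higher at a p under 0.05, beside 2.27% of all genes. The 3 were Shmt1 (0.64, SE 0.27), Mthfd1l (0.30, SE 0.12) and Mat2a (0.23, SE 0.09). Shmt1 was low, at 2.94 ± 0.811 CPM in aDR and 1.82 ± 0.319 CPM in AL (SD, n = 4 each), and its groups overlapped. Of 14 sex steroid and reproductive genes 10 were below 0, and 2 were lower at a p under 0.05, beside 2.35% of all genes. They were the progesterone receptor Pgr, at 27.9 ± 2.44 CPM against 33.7 ± 3.23 CPM (SD, n = 4 each; -0.27, SE 0.10), and the estrogen receptor Esr2 (-0.75, SE 0.32). Esr2 was low, at 1.16 ± 0.362 CPM in aDR and 1.97 ± 0.561 CPM in AL (SD, n = 4 each), and its groups overlapped. The p53 regulator Mdm2 was at 0.22 (SE 0.08). The list of p53 targets and senescence genes had 2 of 14 at a p under 0.05, both higher, beside 2.27% of all genes.

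**Figure D4:**
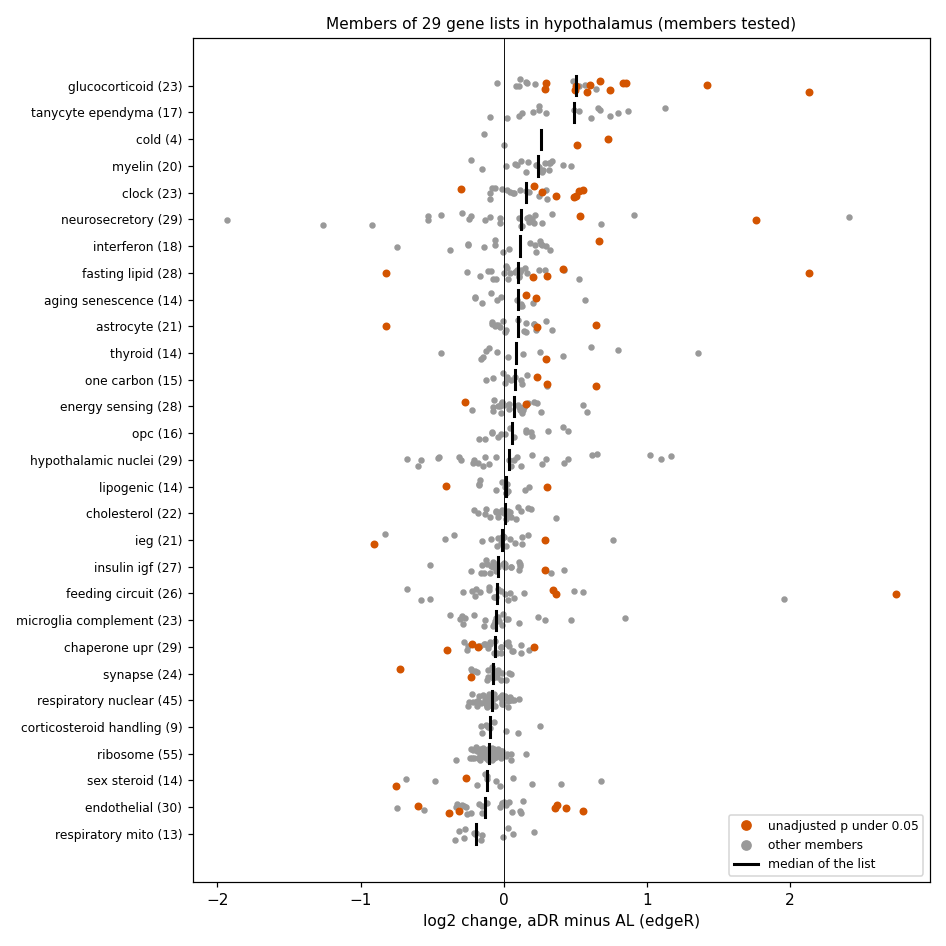
Each point is 1 tested gene, at its edgeR log2 change of aDR minus AL (x axis), in 29 lists (y axis, with the number tested in brackets). Orange marks an unadjusted p under 0.05, grey the rest, and the black bar the median. The glucocorticoid list has 12 orange points, all to the right of 0, and the highest median at 0.51, while the tanycyte and ependymal list has a median of 0.49 with 0 orange points.

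Of 30 vessel genes tested, edgeR called 0. At a p under 0.05, 4 were higher and 3 lower, beside 2.27% and 2.35% of all genes, and the median was -0.13. The transporters Abcb1a, at 11.6 ± 0.808 CPM in aDR and 9.09 ± 0.650 CPM in AL (0.35, SE 0.12), and Abcg2, at 25.7 ± 3.22 against 19.9 ± 1.03 CPM (0.37, SE 0.11), pump drugs back to the blood. Both were higher, as were Mfsd2a and the junction protein Ocln (0.43, SE 0.13; SD above over n = 4 each). Lower were Cldn5, the angiopoietin receptor Tek (-0.38, SE 0.16) and the pericyte gene Rgs5 (-0.31, SE 0.11). Kdr, a receptor for VEGF, was at 9.81 ± 2.30 CPM against 12.3 ± 1.98 CPM (SD, n = 4 each; -0.33, SE 0.19), without a p under 0.05.

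Glial and immune lists held few genes with a p under 0.05, a threshold met by 4.63% of all genes. Among 21 astrocyte genes these were Etnppl, the connexin Gjb6 (0.23, SE 0.10) and Fabp7, and the reactive marker Gfap was at 244, 763, 211 and 163 CPM in aDR and 288, 241, 234 and 480 CPM in AL (0.15, SE 0.45). For the complement gene C4b the values were 84.9, 155, 82.5 and 74.9 CPM against 99.3, 81.4, 96.5 and 113 CPM (0.03, SE 0.21). For both genes aDR 64 was far above its group, and without it the log2 change was -0.59 for Gfap and -0.265 for C4b. Microglia and complement genes had 0 of 23 with a p under 0.05 (median -0.05), and interferon-stimulated genes had 1 of 18, Ifit3 (0.66, SE 0.29), which was 1.02 without AL 69 and 0.47 without AL 66. Oligodendrocyte precursor genes had 0 of 16 (median 0.06), and myelin genes 0 of 20 with a median of 0.24. Their summed level was 7218 to 21254 CPM in aDR and 7021 to 14144 CPM in AL, highest in aDR 62 and aDR 64.

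Lists of general cell function leaned slightly lower in aDR with no gene past a p of 0.05 in most. Cytosolic ribosomal proteins had 50 of 55 genes below 0 (median -0.10), nuclear respiratory genes 34 of 45 (median -0.08) and mitochondrial respiratory genes 10 of 13 (median -0.19), each with 0 genes at a p under 0.05. Single libraries move these medians, since that of the ribosomal list ran from -0.25 to 0.01 with 1 library left out. Synaptic and general neuronal genes had 21 of 24 below 0 (median -0.07). Of the 24, 2 were lower and 0 higher at a p under 0.05, beside 2.35% and 2.27% of all genes. There Syp, the vesicle protein synaptophysin, was at 153, 119, 144 and 218 CPM in aDR and 317, 171, 274 and 291 CPM in AL (-0.73, SE 0.22), and the glycolytic enzyme Eno2 was at 604 ± 44.1 CPM against 709 ± 34.2 CPM (SD, n = 4 each; -0.23, SE 0.08). Immediate early genes had a median of -0.01. Of the 21 tested, 1 was lower and 1 higher at a p under 0.05, beside 2.35% and 2.27% of all genes. Egr3 was lower (-0.91, SE 0.39), at only 1.44 ± 0.661 CPM in aDR and 2.75 ± 0.881 CPM in AL (SD, n = 4 each), and Dusp1 was higher. Among 29 chaperone and endoplasmic reticulum stress genes, 3 were lower and 1 higher at a p under 0.05, beside 2.35% and 2.27% of all genes. Hsph1 (-0.22), Hsf1 (-0.18) and Sdf2l1 (-0.40) were lower and Herpud1 (0.21) higher.

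The hypothalamus was then set beside the other 14 brain regions of the same mice. In those regions, with 1 value per mouse (5 aDR against 4 AL, limma), 232 of 13778 genes were called at an adjusted p under 0.05 (1.68%), 129 higher (0.936%) and 103 lower (0.748%). In hypothalamus, 122 of the 129 had a log2 change above 0 (median 0.19), 45 had a p under 0.05 and were higher (2.27% of all genes were), and 29 had aDR values above all AL values (1.68% of all genes). Of the 103, 93 were below 0 (median -0.17), 30 had a p under 0.05 and were lower (2.35% of all genes), and 13 had aDR values below all AL values (1.55%). The mice are the same in both sets, so the hypothalamus values are not independent of the choice of genes. The count over the other regions moved with single mice: it was 33 without AL mouse 66, 54 without aDR 62, 56 without AL 68 and also without AL 69, 83 without AL 63, 104 without aDR 61 and 107 without aDR 65, and 260 without aDR 67.

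Whether the hypothalamus differed from the rest of the brain was tested on the difference within each mouse. At an adjusted p under 0.05, limma called 0 of 13778 genes (0%), with a smallest adjusted p of 0.999, and 380 had an unadjusted p under 0.05 (2.76%). Rbm3 differed from the mean of the other regions by 0.07 (SE 0.09), Cirbp by -0.12 (SE 0.10), Tsc22d3 by 0.10 (SE 0.11), Plin4 by 0.01 (SE 0.36) and Fabp7 by -0.20 (SE 0.16). Among the 15 regions, each fitted alone, the log2 change in hypothalamus ranked 6 from the top for Rbm3, 14 for Cirbp, 6 for Tsc22d3 and 7 for Plin4, and all 14 other regions had the same sign for each of these 4 genes and for Fabp7. Ciart ranked 11, with 0.53 beside 0.31 to 1.23 elsewhere, a difference of -0.24 (SE 0.11). A voom fit over all libraries, run as an alternative, called 9 genes. Ccdc153, Tmem212, Cdhr4, Ttc29, Frmpd2, Cfap43, Lrrc71, Dthd1 and Ccdc180 were all higher in that contrast, and in AL mouse 66 each was between 0 and 0.469 CPM in hypothalamus.

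Some genes leaned further in hypothalamus than elsewhere, without a call. Mertk (0.60) ranked 1 of 15 regions, with 0.17 to 0.59 in the others, and so did Mxi1 (0.32, others 0.02 to 0.24) and Usp2 (0.50, others 0.11 to 0.46). Rin2 (0.45) ranked 2, with others from -0.16 to 0.52 and a median of 0.22, and differed within the mouse by 0.30 (SE 0.10). On the lower side Lpcat4 ranked last of 15, at -0.38 with others from -0.25 to 0.18, and its within-mouse difference was -0.35 (SE 0.15). Syp ranked last as well, at -0.73 beside -0.33 to 0.35 (difference -0.66, SE 0.26), and so did Pgr, at -0.27 beside -0.19 to 0.32 (difference -0.31, SE 0.10). The within-mouse difference was 0.23 (SE 0.11) for Mertk, 0.18 (SE 0.07) for Mxi1 and 0.21 (SE 0.13) for Usp2. The adjusted p of each of these differences was 0.999 by limma. All these genes were named for a low p in hypothalamus, which favours a rank at the edge. Their ranks are therefore no further evidence.

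**Figure D5:**
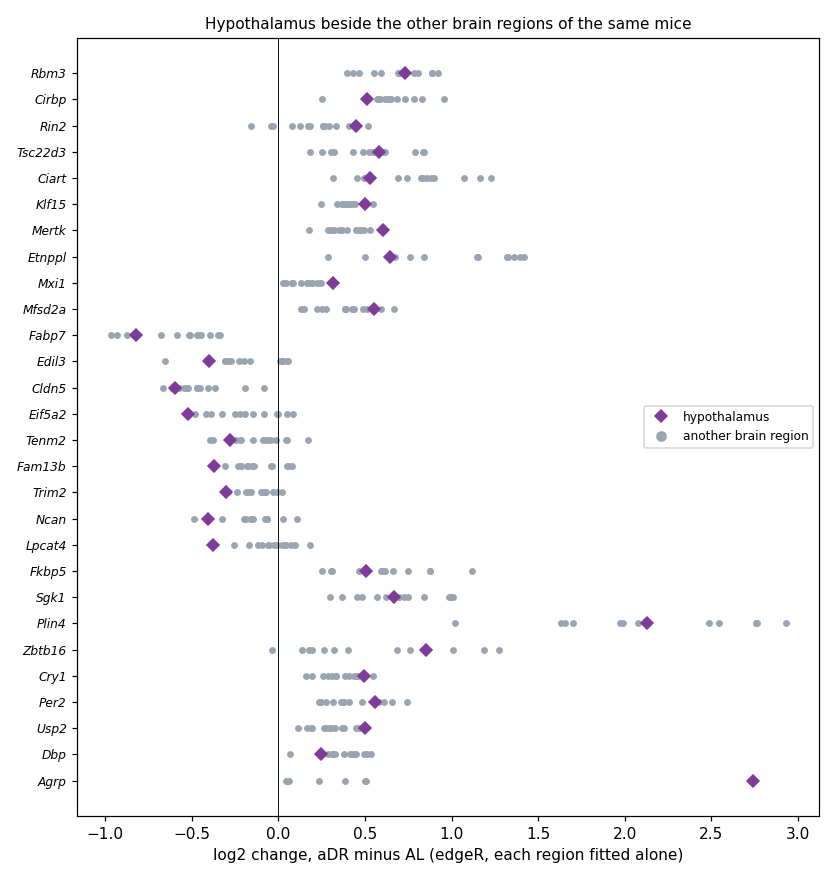
Each row is 1 gene and each point the edgeR log2 change of aDR minus AL (x axis) in 1 region, with hypothalamus as a purple diamond and the other brain regions as grey dots. For Rbm3, Cirbp and Plin4 the diamond lies among the dots. For Mertk, Mxi1 and Lpcat4, named for a low p in hypothalamus, it lies at their edge or beyond it. Agrp stands at 2.74 beside 0.04 to 0.51 in the 7 other regions where it was tested. Without aDR 67 its hypothalamus value was 0.70, and its within-mouse difference was 1.10 (SE 1.09).

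The hypothalamus of the plasma cohort, 3 male mice given YMP and 3 given PBS, gave 0 called genes of 13776 by edgeR (0%; smallest adjusted p 0.39), with 600 at an unadjusted p under 0.05 (4.36%). Among the leading diet genes, the log2 change of YMP minus PBS was -0.01 (SE 0.17) for Rbm3, -0.05 (SE 0.08) for Cirbp and 0.01 (SE 0.16) for Ciart. It was 0.28 (SE 0.15) for Mfsd2a, 0.25 (SE 0.13) for Klf15, 0.15 (SE 0.09) for Mxi1, 0.11 (SE 0.13) for Rin2 and -0.18 (SE 0.10) for Fabp7. Other glucocorticoid targets gave 1.44 (SE 0.47) for Sgk1, 0.44 (SE 0.13) for Klf9, 0.35 (SE 0.13) for Tsc22d3 and -0.05 (SE 0.13) for Fkbp5. Map3k6 was at 0.75 (SE 0.43), Dusp1 at 0.61 (SE 0.31), Zbtb16 at 0.34 (SE 0.28) and Plin4 at 0.29 (SE 0.47). Mertk was at 0.05 (SE 0.16), Hif3a at -0.00155 (SE 0.70) and Fmo2 at -0.71 (SE 0.41). Differences between the cohorts were not tested, and sex and cohort cannot be told apart.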

How the data were processed

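RNA was measured by unstranded mRNA-seq (RNeasy isolation, Smart-Seq2 cDNA, Nextera XT libraries, per the labels' protocols). The authors deposited whole-number read counts per gene, 21076 rows in 1 table, used here as raw counts. The submitters' processing notes name GRCm38, Trim Galore 0.3.7, STAR 2.5.3a and DESeq2, with no role. The counting program and annotation are not given in the sources used here. Groups and mice came from the labels. Counts of 12 of 88 named genes could be shared with an overlapping gene that has its own row, Agrp, Plin4, Pmch, Dbp and Nr1d1 among them.

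The 8 libraries were fitted alone in edgeR 4.0.16 (R 4.3.3; filterByExpr at min.count 10 and min.total.count 15, TMM, quasi-likelihood test, Benjamini-Hochberg at 0.05), without covariates. CPM and log2 values were computed here from the deposited counts. The regions were compared with limma 3.58.1 on 1 value per mouse: log2 CPM (prior count 2) in hypothalamus minus the mouse term of a fit on region and mouse over the other 14. DESeq2 1.42.0, other normalizations, filters, voom fits and libraries left out were alternatives. The fits were tested on simulated data. Promoters and coordinates are those of RefSeq on GRCm38.p6. Libraries of the same group differed by at least 4.98 in chi-square per degree of freedom, so each was counted as a replicate.

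Libraries with the same mouse number come from 1 animal. Deviations from the group means correlated by 0.083 on average between hypothalamus and other regions of the same mouse (-0.277 to 0.296) and by -0.014 between different mice. The diets share no mouse, so no block enters their comparison.

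Named genes were the 10 with the smallest p on each side among genes with a mean of at least 5 CPM and no overlap of groups, list members with an unadjusted p under 0.05, genes called by a test, and a fixed set of peptide, clock and glucocorticoid genes. A few list members were added after their values were seen, to show the rest of a list. Some genes that the rule names are not reported here. The lists held 724 genes, of which 721 had a row and 665 were tested. The members, lists and rules were chosen with earlier results of these data known.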

Additional observations from a re-analysis of the deposited data

Results flagged for a closer look

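Groups of 4 libraries were searched for a single library far from the other 3 of its diet (a gap above the critical value of Dixon's test). This marked 10 of 118 groups. Among independent groups with a normal spread, chance would mark about 1 in 20, or 5.9. The groups here share libraries, and some genes were chosen for groups without overlap, so 10 cannot be judged against 5.9. In depth, AL 66 held 21.9 M counts beside 5.34 to 5.87 M. Pituitary markers summed to 1182 CPM in aDR 67 beside 1.31 to 42.4 CPM. The library of aDR 64 was high in 4 genes. These were Oxt at 467 CPM beside 0.218 to 51.6, Avp at 727 CPM beside 0.655 to 8.48, Gfap at 763 CPM beside 163 to 244, and C4b at 155 CPM beside 74.9 to 84.9. Hcrt was at 999 CPM in AL 66 beside 139 to 220, and Cartpt at 88.9 CPM in AL 68 beside 214 to 225. The library of aDR 65 was low in 2 genes, Rin2 at 49.7 CPM beside 58.8 to 59.1 and Trim2 at 160 CPM beside 179 to 183.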

How the results depend on the processing

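The count of 0 called genes held under every other normalization, filter, weighting and left-out library tried, apart from DESeq2, which called 11. The smallest adjusted p over the edgeR alternatives was 0.0819, with all 14 hypothalamus libraries in the fit. The 639 genes with a p under 0.05 became 1129 with voom sample weights, 376 to 981 with 1 library left out (without AL 68 and without aDR 67) and 963 without aDR 62 and aDR 67, a choice made after seeing the data, as were the nuclei covariate and leaving out aDR 62 with AL 66. The test of the hypothalamus against the other regions gave 0 with each mouse left out, 9 in the voom fit with no replicate block and 9 with the mouse as a block. Calls over the other 14 regions ran from 33 to 260 with 1 mouse left out. Of 1666 alternative log2 changes of 88 named genes, 1623 kept direction and side of the threshold, 11 passed it (DESeq2), and 32, in 11 genes, turned sign. With 1 library left out, the ranges were -1.07 to 0.28 for Pomc, -0.25 to 0.20 for Lepr, -0.91 to 1.04 for Hcrt, -6.18 to 0.30 for Avp, -0.33 to 0.24 for Sst, -0.42 to 0.39 for Ghrh, -0.52 to 0.21 for Gal, -0.0173 to 0.115 for Nr1d1, -0.265 to 0.143 for C4b and -0.59 to 0.44 for Gfap. Voom weights turned Pomc to 1, Lepr to 0.0504, Sst to 0.0436 and C4b to -0.0187. Thinning AL 66 to the median depth turned Lepr to 0.0059. The covariate turned Sst to 0.23. Without aDR 62 and AL 66, Lepr was 0.0199, Hcrt 0.15 and Gal 0.16. Without aDR 62 and aDR 67, Avp was 0.0789, Trh 0.21, Sst 0.24 and Ghrh -0.13. The cause was not tested in any of these.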

Other observations

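Genes with the smallest p for the difference between hypothalamus and the other regions were outside the lists. Rab29, a small GTPase of vesicle traffic, was at 6.26 ± 0.761 CPM in aDR and 5.03 ± 0.370 CPM in AL hypothalamus (SD, n = 4 each), with a within-mouse difference of 0.43 (SE 0.09, limma adjusted p 0.999). Mapkapk3, a kinase downstream of p38, was at 5.39 ± 0.330 CPM against 3.58 ± 0.764 CPM (SD, n = 4 each), with a difference of 0.64 (SE 0.13, limma adjusted p 0.999). Both were picked after their values were seen.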
